A study of Mus musculus with 6 samples.

Results

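Tetraspanins are small membrane proteins that cross the membrane 4 times, and 10 of their genes are described here in mouse bone marrow-derived macrophages (BMDM): Cd9, Cd37, Cd53, Cd63, Cd81, Cd82, Cd151, Tspan3, Tspan4 and Tspan14. The members were chosen by gene symbol, with earlier results of these data known. Each of the 10 matched 1 entry among the 25124 genes of the deposited table. The 6 messenger RNA libraries were made from marrow of 8-week-old wild-type C57BL/6 mice, cultured for 7 days in 20 ng/ml macrophage colony-stimulating factor (M-CSF). The 3 M2 libraries came from cells given 10 ng/ml interleukin-4 (IL-4) together with 20 ng/ml M-CSF for 4 h, and the 3 M0 libraries came from cells kept in 20 ng/ml M-CSF without IL-4. The labels do not say whether the replicates came from separate mice or cultures, so p-values measure the spread between these libraries, which may be technical.

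Tetraspanins have few ligands of their own. They bind each other, integrins, immunoglobulin-family proteins and proteases in the plane of the membrane, and so set where partner proteins sit and how fast they move to and from the cell surface. In macrophages CD9 and CD81 are known as brakes on cell fusion, CD37, CD53 and CD82 are leukocyte surface molecules, and CD63 marks late endosomes, lysosomes and the vesicles that cells release. Palmitate added to their cysteines helps them to hold on to each other.

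Expression was read as TPM (transcript abundance scaled for transcript length and sequencing depth), with 16913185 to 19019896 reads recovered per library. The deposited values summed to 542749 to 543854 TPM in the M2 libraries and 548160 to 553186 TPM in the M0 libraries. These totals are below the scale that the unit names, so a value is not a direct share of all transcripts. The members were covered by 992 to 19720 reads per library, so counting error was at most 3.17% of a value. The chi-square of the reads of a pair of libraries, divided by its degrees of freedom, was 1.54 to 1.73 within M2. In M0, replicate 2 stood apart, with 9.52 and 10.7 against the other replicates, which gave 2.31 between themselves. M0 replicate 2 was the highest or lowest of the M0 libraries for 9 of the 10 members and for 81.8% of tested genes, and where leaving it out changed the call of a member, both values are given. Arg1, an arginase and a textbook IL-4 target, had 1009 ± 7.40 TPM in M2 and 1.55 ± 0.328 TPM in M0, and the resistin-like gene Retnla 4859 ± 135 TPM in M2 and 0.172 ± 0.2004 TPM in M0, as the labels require (SD, n = 3 each). The macrophage markers Adgre1 (F4/80), at 534 ± 8.82 TPM in M2 and 535.8 ± 43.7 TPM in M0, and Csf1r (the M-CSF receptor), at 912 ± 1.97 TPM in M2 and 674 ± 11.8 TPM in M0, were abundant in both groups.

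Of the 10 tetraspanins, 5 rose with IL-4 (Cd151, Cd9, Cd81, Cd63 and Cd53), 2 fell (Cd82 and Tspan3) and 3 did not pass the test (Cd37, Tspan4 and Tspan14). The test was limma-trend on log2 of TPM plus 1 over all 11235 genes with at least 1 TPM in at least 3 libraries, and the threshold was an adjusted p (Benjamini-Hochberg) under 0.05. All 10 members met that filter in every library. Among all tested genes 17.7% rose and 45.3% fell, together 62.9%. The libraries of the groups did not overlap for 8 of the 10 members, against 69.4% of tested genes. The median log2 fold change was 0.08 over the members and -0.15 over all tested genes. By mean TPM in M2 the members stood between rank 33 and rank 2327, so they are more abundant than most tested genes. Dividing each library by its median ratio to the others moved the median of all genes to 0.00, so changes are also given on that median-scaled basis. There, 28.8% of tested genes rose and 28.2% fell, and 5 members rose, 1 fell and 4 missed the threshold. In bulk RNA, fewer cells of a type and less RNA per cell cannot be told apart.

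**Figure D1:**
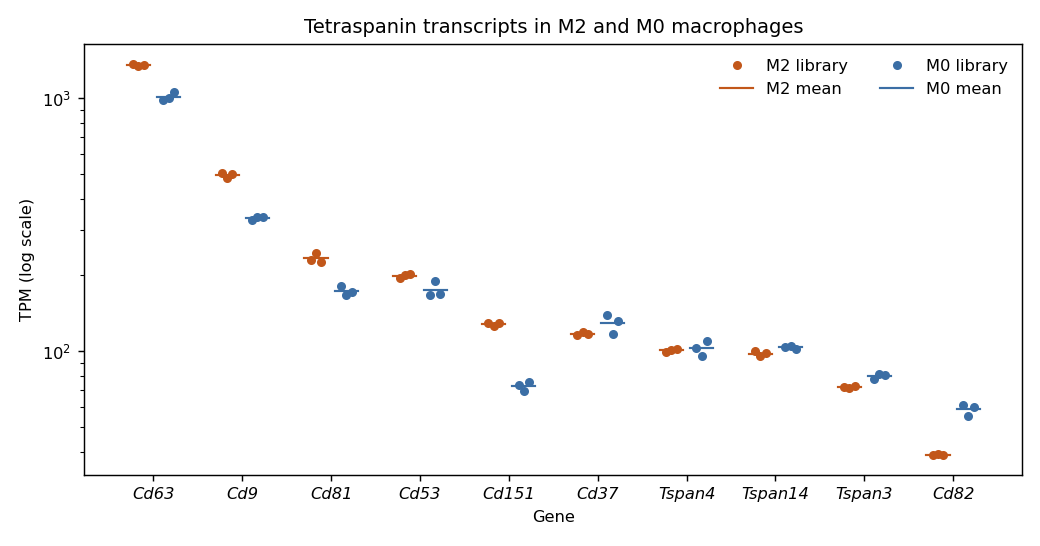
TPM of the 10 tetraspanin genes in each library (points) with the group mean (line), M2 left of M0 within each gene, on a log axis. Cd63 lay between 979.6 and 1370.2 TPM in every library, and the M2 points of Cd151 lay between 126 and 129 TPM, above the M0 points between 69.7 and 75.5 TPM.

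All 10 genes have a promoter window in the RefSeq table for GRCm38.p6, the assembly of the authors' mm10 build, holding 250 bases before to 50 after a transcript start. Some genes have several starts, which gave 16 windows, and for 9 of the 10 genes a window sits at the 5′ end of the counted transcript. For Cd63 the only window in the table lies 521 bases upstream of that end. The windows were searched on both strands for the letters bound by STAT6, the factor that IL-4 activates (TTC and GAA with 4 bases between them), for the related pair with 3 bases between them, the GC box GGGCGG, the E-box CACGTG, the AP-1 letters TGANTCA and the ETS letters GAGGAAGT. Of 32851 promoter windows of all genes, 6.95% held the pair with 4 bases between, 8.30% that with 3, 35.7% the GC box, 7.15% the E-box, 7.81% the AP-1 letters and 3.20% the ETS letters. Of the 16 windows of the members, 2 held the pair with 4 bases between, 1 that with 3, 8 held the GC box, 2 the E-box, 1 the AP-1 letters and 4 the ETS letters. A match in these letters is a description and does not show binding. The windows printed below, 5′ to 3′ on the strand of the gene, are those of Cd151 and Tspan4, neighbours on chromosome 7 of which Cd151 rose, of Cd9, of Cd82, which fell most, and of Cd53 and Tspan3, which held the STAT6 letters. Each runs across the 5′ end of the counted transcript, and capitals mark matches to the letters above.
Cd151, chr7:141467112-141467411, plus strand, GC boxes: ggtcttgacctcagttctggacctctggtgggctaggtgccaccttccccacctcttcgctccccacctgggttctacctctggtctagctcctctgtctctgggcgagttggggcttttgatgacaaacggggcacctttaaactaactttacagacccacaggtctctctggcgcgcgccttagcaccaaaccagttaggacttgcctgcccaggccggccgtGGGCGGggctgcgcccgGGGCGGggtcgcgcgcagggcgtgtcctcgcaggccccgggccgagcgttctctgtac
Tspan4, chr7:141476130-141476429, plus strand, E-box and AP-1 letters: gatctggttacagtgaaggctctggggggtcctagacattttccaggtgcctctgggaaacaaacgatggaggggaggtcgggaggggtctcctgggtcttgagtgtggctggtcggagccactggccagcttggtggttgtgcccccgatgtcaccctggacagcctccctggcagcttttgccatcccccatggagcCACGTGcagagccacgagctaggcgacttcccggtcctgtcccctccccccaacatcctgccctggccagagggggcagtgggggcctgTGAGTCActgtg
Cd9, chr6:125494711-125495010, minus strand, GC boxes: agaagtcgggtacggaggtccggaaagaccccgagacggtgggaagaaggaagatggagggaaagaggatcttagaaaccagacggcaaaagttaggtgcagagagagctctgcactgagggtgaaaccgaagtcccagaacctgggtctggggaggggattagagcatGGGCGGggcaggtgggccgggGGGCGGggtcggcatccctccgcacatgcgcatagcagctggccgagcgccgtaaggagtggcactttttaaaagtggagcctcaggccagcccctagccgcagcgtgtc
Cd82, chr2:93462453-93462752, minus strand, GC box: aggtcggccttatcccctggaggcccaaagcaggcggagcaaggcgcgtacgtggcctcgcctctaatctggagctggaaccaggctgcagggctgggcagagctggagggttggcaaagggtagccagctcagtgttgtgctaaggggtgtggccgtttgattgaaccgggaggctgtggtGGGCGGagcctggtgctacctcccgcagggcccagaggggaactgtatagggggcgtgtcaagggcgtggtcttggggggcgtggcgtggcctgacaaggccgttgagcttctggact
Cd53, chr3:106790100-106790399, minus strand, STAT6 and ETS letters: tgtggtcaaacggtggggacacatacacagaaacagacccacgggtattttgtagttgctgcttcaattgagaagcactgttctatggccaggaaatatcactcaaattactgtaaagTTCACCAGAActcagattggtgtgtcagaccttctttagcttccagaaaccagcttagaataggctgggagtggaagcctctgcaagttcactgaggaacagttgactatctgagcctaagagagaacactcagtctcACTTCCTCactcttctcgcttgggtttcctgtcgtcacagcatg
Tspan3, chr9:56161021-56161320, minus strand, STAT6 letters at 2 places: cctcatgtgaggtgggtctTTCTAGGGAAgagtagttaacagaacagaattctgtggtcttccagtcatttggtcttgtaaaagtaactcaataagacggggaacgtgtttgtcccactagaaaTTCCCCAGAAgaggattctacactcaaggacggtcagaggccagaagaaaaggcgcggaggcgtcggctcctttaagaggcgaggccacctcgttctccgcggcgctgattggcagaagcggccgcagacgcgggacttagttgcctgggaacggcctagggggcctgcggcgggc
Of the printed windows, those of Cd53 and Tspan3 held the STAT6 letters, and those of Cd151, Cd9 and Cd82 held GC boxes and none of the other letters searched. Windows at other starts of the same genes differed. The second Cd151 window held no match, and of the other Cd82 windows 1 held GC boxes, 1 the ETS letters and 1 the TTC and GAA pair with 3 bases between. The other Tspan4 window, at a start 1144 bases upstream, held 3 GC boxes.

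Cd151, which encodes the partner of the laminin-binding integrins, had the largest change of the 10. It lies on mm10 chromosome 7, positions 141467362 to 141471481, on the plus strand (NM_001111049, 8 exons). Cd151 measured 129, 126 and 129 TPM in the M2 libraries, against 73.2, 69.7 and 75.5 TPM in the M0 libraries. The groups lay well apart, and the ratio of mean TPM was 1.76. The log2 fold change was 0.81 (SE 0.04, limma-trend adjusted p = 1.3e-07), and 0.98 after median scaling. Of all tested genes, 12.4% had a log2 fold change at least as large in either direction, and 533 had a larger rise.

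Cd9 and Cd81 encode closely related tetraspanins that act in cell adhesion, cell fusion and, for CD81, the B cell co-receptor. Cd9 (chromosome 6, positions 125460266 to 125494760, minus strand) had 508, 483 and 502 TPM in M2, against 331, 341 and 338 TPM in M0. Its log2 fold change was 0.56 (SE 0.04, limma-trend adjusted p = 4.0e-07), and 0.74 after median scaling. Cd81 (chromosome 7, positions 143052750 to 143067930, plus strand) had 229, 245 and 225 TPM in M2, against 180.2, 167 and 172 TPM in M0. The M2 libraries were above the M0 libraries for both genes, by 1.48-fold for Cd9 and 1.35-fold for Cd81 in mean TPM. The log2 fold change of Cd81 was 0.43 (SE 0.05, limma-trend adjusted p = 2.3e-05), and 0.60 after median scaling. The ratio of Cd9 to Cd81 within a library, which no scaling can move, was 2.14 ± 0.145 in M2 and 1.95 ± 0.0999 in M0 (SD, n = 3 each), with overlapping libraries.

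Cd63, the late endosome and lysosome tetraspanin, was the most abundant of the 10 in every library. It lies on chromosome 10, positions 128909866 to 128912818, plus strand, and its transcript of 889 bases was the shortest of the members. Cd63 had 1370.2, 1338 and 1353 TPM in M2, against 979.6, 998 and 1059.6 TPM in M0. It stood at rank 33 of the tested genes by mean TPM in M2 and at rank 41 in M0. The groups did not overlap, and the log2 fold change was 0.42 (SE 0.04, limma-trend adjusted p = 4.6e-06), or 0.59 after median scaling. Cd63 made up 47.7% ± 0.242 of the summed TPM of the 10 genes in M2 and 45.1% ± 0.984 in M0 (SD, n = 3 each). That sum was 2839 ± 19.7 TPM in M2 and 2243 ± 45.2 TPM in M0, while all 31 family genes summed to 3031 ± 19.9 TPM in M2 and 2394 ± 45.7 TPM in M0.

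Cd53, Cd37 and Cd82 encode tetraspanins that are found on white blood cells, though Cd82 not on these alone, and they moved differently. Cd53 (chromosome 3, positions 106758861 to 106790149, minus strand), a marker found across leukocytes, had 195, 199.99 and 202 TPM in M2, against 166, 189 and 168 TPM in M0. M0 replicate 2, at 189 TPM, lay close under the lowest M2 library. The log2 fold change of Cd53 was 0.19 (SE 0.05, limma-trend adjusted p = 0.00957), 0.36 after median scaling and 0.25 without M0 replicate 2. Cd82 (chromosome 2, positions 93419102 to 93462502, minus strand), known as a suppressor of tumour cell spread, had 38.8, 39.4 and 38.95 TPM in M2, against 61.2, 55.3 and 60.02 TPM in M0. Every M2 library was below every M0 library, and the log2 fold change was -0.58 (SE 0.05, limma-trend adjusted p = 4.2e-06), or -0.41 after median scaling.

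Cd37 (chromosome 7, positions 45233632 to 45238839, minus strand), whose protein is known to hold the beta-glucan receptor dectin-1 at the surface, had 116, 119 and 117 TPM in M2, against 139, 117 and 131 TPM in M0. M0 replicate 2 fell among the M2 libraries, so the groups overlapped. The log2 fold change was -0.13 (95% interval -0.27 to 0.00, limma-trend adjusted p = 0.0811). Without M0 replicate 2 the log2 fold change was -0.20 and passed (adjusted p = 0.000976). After median scaling the log2 fold change had the other sign, 0.04 (95% interval -0.12 to 0.20, adjusted p = 0.655). Within a library the ratio of Cd82 to Cd37 was 0.333 ± 0.00141 in M2 and 0.457 ± 0.0170 in M0 (SD, n = 3 each).

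Tspan3, Tspan4 and Tspan14 had log2 fold changes between -0.14 and -0.02. Tspan3 (chromosome 9, positions 56135884 to 56161070, minus strand) had 72.5, 71.7 and 72.9 TPM in M2, against 77.5, 81.3 and 80.6 TPM in M0. The groups did not overlap, and the log2 fold change was -0.14 (SE 0.04, limma-trend adjusted p = 0.0145). That fall was close to the median of all genes, and it did not pass after median scaling (0.03, adjusted p = 0.536). It also missed the threshold without M2 replicate 1 (adjusted p = 0.0519) or M2 replicate 2 (adjusted p = 0.0644). Tspan4 (chromosome 7, positions 141476380 to 141493427, plus strand), which encodes a protein of migrasomes, the vesicles left behind by moving cells, had 99.2, 101 and 102 TPM in M2, against 103, 95.4 and 109 TPM in M0. The M0 libraries spanned the M2 libraries, and the log2 fold change was -0.02 (95% interval -0.14 to 0.09, limma-trend adjusted p = 0.724), or 0.15 after median scaling (95% interval 0.01 to 0.29, adjusted p = 0.0675). Without M0 replicate 2 it was -0.07 and did not pass (adjusted p = 0.0963). Tspan14 (chromosome 14, positions 40906427 to 40948209, minus strand), which encodes a carrier of the protease ADAM10, had 100.06, 95.6 and 98.04 TPM in M2, against 104, 105 and 102 TPM in M0. Its libraries did not overlap, while its log2 fold change of -0.08 (95% interval -0.17 to 0.01) did not pass the limma-trend test (adjusted p = 0.106) and became 0.09 after median scaling (95% interval -0.00 to 0.18, adjusted p = 0.0883).

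**Figure D2:**
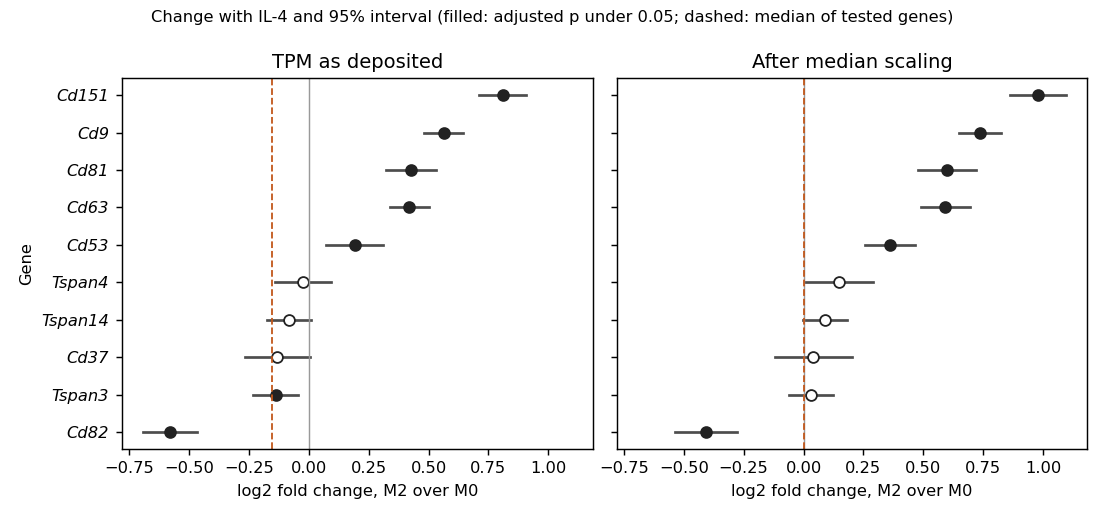
Log2 fold change of each tetraspanin, M2 over M0, with its 95% interval, on TPM as deposited (left) and after median scaling (right). Filled points passed at an adjusted p under 0.05, and the dashed line is the median of all tested genes, -0.15 on the left and 0.00 on the right. The 5 genes that rose and Cd82 keep their side of 0 in both panels, while Tspan4, Tspan14, Cd37 and Tspan3 change side.

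By mean TPM, the order of levels in M2 was Cd63, Cd9, Cd81, Cd53, Cd151, Cd37, Tspan4, Tspan14, Tspan3 and Cd82. In M0 it was Cd63, Cd9, Cd53, Cd81, Cd37, Tspan14, Tspan4, Tspan3, Cd151 and Cd82. Cd151 stood at place 5 in M2 and at place 9 in M0. In M2, neighbouring genes in this order did not overlap between libraries, except Tspan4 and Tspan14. In M0 the ranges of Cd53 and Cd81 overlapped, and so did those of Tspan14 and Tspan4. Replicate spread of the members was small in M2, with a median coefficient of variation of 1.38% against 4.09% for all tested genes, and was 4.08% against 7.51% in M0. The tested genes include many with few reads, where counting error is larger than for the members. Spread at a like abundance was not compared.

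**Figure D3:**
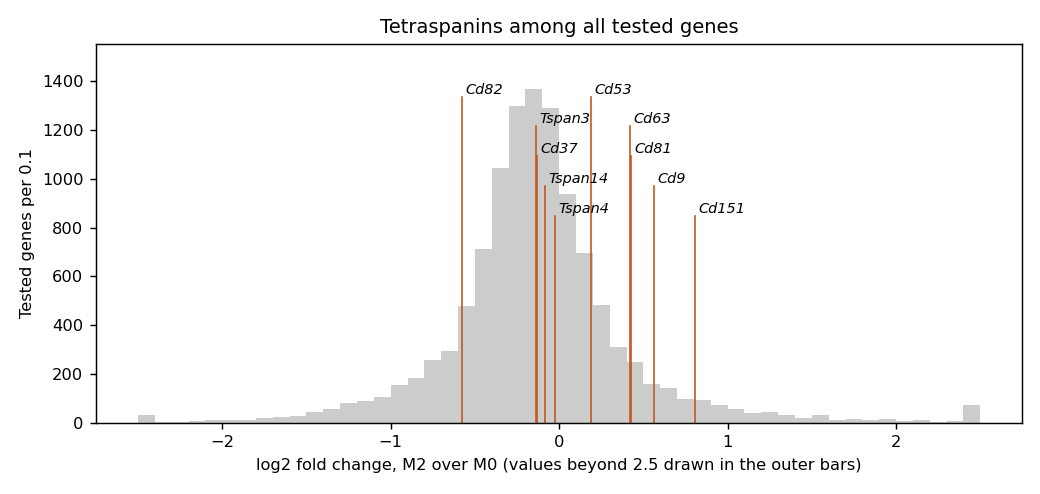
Number of tested genes per bin of 0.1 in log2 fold change, M2 over M0 (grey), with the 10 tetraspanins as lines. Cd82, at -0.58, stands left of the bulk of genes, Tspan3, Cd37, Tspan14 and Tspan4 stand within it, and Cd151, at 0.81, stands farthest right of the 10 lines.

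In the authors' deposited table of the comparison, whose fold changes are M2 over M0, 5 of the members had an adjusted p under 0.05 with a rise, 1 with a fall, and 4 did not pass. That table, the authors' deposited table, gives log2 fold changes of 0.98 for Cd151, 0.73 for Cd9 and -0.41 for Cd82, and 0.03 for Tspan3 (adjusted p = 0.737).

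Cd151 and Tspan4 lie 4898 bases apart on chromosome 7, both on the plus strand, with Polr2l between them. The ratio of Cd151 to Tspan4 was 1.30, 1.24 and 1.27 in the M2 libraries, against 0.712, 0.731 and 0.691 in the M0 libraries. In each M2 library Cd151 was the higher of the pair, and in each M0 library Tspan4 was. A two-sided exact permutation test over libraries gave p = 0.1, the smallest that 3 against 3 allows, and 0.133 after adjustment over the 4 ratios of this kind that were computed. The other ratios were Cd9 to Cd81 (exact p = 0.2), Cd82 to Cd37 (exact p = 0.1) and Tspan17 to Tspan14 (exact p = 0.1). Neighbours of Cd151 were looked up after its change had been seen, and some rose, 1 fell and others did not pass. Their values are given on deposited TPM only. Gm10575 and Chid1 rose, with log2 fold changes of 0.63 and 0.43 (limma-trend adjusted p = 2.3e-05 and 8.1e-05). Both lie on the minus strand and share exon bases with Cd151 or Tspan4, so some of their reads may belong to those genes. Upstream, the triglyceride lipase gene Pnpla2 had 97.6 ± 0.694 TPM in M2 and 57.7 ± 2.42 TPM in M0, and rose with a log2 fold change of 0.75 (limma-trend adjusted p = 2.5e-07). Cracr2b, next to Cd151, had 40.4 ± 2.27 TPM in M2 and 25.2 ± 1.62 TPM in M0, and rose with a log2 fold change of 0.66 (limma-trend adjusted p = 8.6e-06). Farther upstream, the ribosomal protein gene Rplp2 had 735 ± 20.2 TPM in M2 and 755 ± 65.6 TPM in M0 and did not pass (limma-trend adjusted p = 0.618). Pidd1, the next gene out, had 2.35 ± 0.363 TPM in M2 and 3.11 ± 0.202 TPM in M0 and fell with a log2 fold change of -0.30 (limma-trend adjusted p = 0.0213). Polr2l, a subunit gene of RNA polymerase II, had 5.61 ± 0.755 TPM in M2 and 5.396 ± 0.801 TPM in M0 (SD, n = 3 each) and did not pass (limma-trend adjusted p = 0.719).

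Some exons of the members overlap exons of genes on the opposite strand in GENCODE M21, and no strand setting is given in the file header, so reads there cannot be assigned. The overlap was 192 bases between Cd151 and Gm10575, 292 bases between Tspan4 and Chid1, 30 bases for Cd9 and for Cd81 and 13 bases between Cd37 and Tead2. Chid1 had 23.8 ± 0.756 TPM in M2 and 17.4 ± 0.657 TPM in M0, and Gm10575 had 11.5 ± 0.606 TPM in M2 and 7.03 ± 0.346 TPM in M0 (SD, n = 3 each). These values may themselves hold reads of the overlapping genes, and the part of the overlaps in the levels of Tspan4 and Cd151 was not tested. No exon overlap was found for Cd53, Cd63, Cd82, Tspan3 or Tspan14.

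By distance in log2 of TPM plus 1 over the 6 libraries, the genes outside the family most like Cd151 were Pip5k1c (distance 0.17), Iscu (0.18) and Itsn1 (0.21). Those most like Cd82 were Htra2 (distance 0.11), Ubtd1 (0.13) and Tgif1 (0.17). Htra2, for example, had 38.4 ± 0.251 TPM in M2 and 56.7 ± 3.63 TPM in M0 (SD, n = 3 each).

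The rest of the family was mostly silent. Of 21 other tetraspanin family genes, 8 were tested, and of these 5 rose, 2 fell and 1 missed the threshold, or 6, 2 and 0 after median scaling. Over all tested genes 17.7% rose and 45.3% fell, or 28.8% and 28.2% after median scaling. The 13 untested genes stayed at or below 0.306 TPM in every library, and 3 of them were listed at 0 throughout. Tspan5 rose to 12.3 ± 0.503 TPM in M2, against 6.09 ± 0.0728 TPM in M0, a log2 fold change of 0.90 (limma-trend adjusted p = 8.9e-07). Tspan17 rose to 55.6 ± 1.27 TPM in M2, against 30.7 ± 1.33 TPM in M0, a log2 fold change of 0.84 (limma-trend adjusted p = 2.3e-07). Tspan7 had 1.38 ± 0.0486 TPM in M2 and 0.391 ± 0.106 TPM in M0, and entered the test through its M2 values alone, so its place among the 5 that rose is no support for a rise of the list. Tspan32, which lies 33264 bases upstream of Cd81, rose to 18.8 ± 1.69 TPM in M2, against 13.0 ± 1.14 TPM in M0 (SD, n = 3 each), a log2 fold change of 0.50 (limma-trend adjusted p = 0.000402). The remaining genes were chosen after their values were seen. Tspan13 fell (14.9 ± 0.431 TPM in M2 and 20.1 ± 1.75 TPM in M0, log2 fold change -0.41), and Tspan31 had 83.4 ± 1.51 TPM in M2 and 75.1 ± 2.64 TPM in M0, but shares 641 bases of exon with Cdk4 on the opposite strand and is uncertain. Rom1, at 2.64 ± 0.1696 TPM in M2 and 2.19 ± 0.0774 TPM in M0, did not pass (limma-trend adjusted p = 0.0648).

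Tspan14 belongs to the TspanC8 tetraspanins, whose extracellular loop holds 8 cysteines and which carry ADAM10, a protease that cuts Notch receptors and other surface proteins, out of the endoplasmic reticulum. Of the 6 TspanC8 genes, Tspan5, Tspan14, Tspan17 and Tspan33 were tested. Tspan14 made up 58.4% ± 0.923 of their summed TPM in M2 and 72.3% ± 0.906 in M0, and Tspan17 33.2% ± 0.896 in M2 and 21.4% ± 0.869 in M0 (SD, n = 3 each). The sum was 168 ± 1.48 TPM in M2 and 143 ± 1.84 TPM in M0. Tspan33, named after its values were seen, fell to 1.90 ± 0.331 TPM in M2, against 2.84 ± 0.0995 TPM in M0 (log2 fold change -0.41, limma-trend adjusted p = 0.00459). The share of Tspan14 was lower in every M2 library than in any M0 library, while its own level did not pass the test. Adam10 itself, named after its values were seen, had 94.7, 93.5 and 91.6 TPM in M2, against 97.4, 119.6 and 96.2 TPM in M0, and did not pass (limma-trend adjusted p = 0.0990). M0 replicate 2 was the highest of the 6 libraries, and without it the log2 fold change of Adam10 was -0.05, against -0.15 with it, and did not pass either (limma-trend adjusted p = 0.139).

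**Figure D4:**
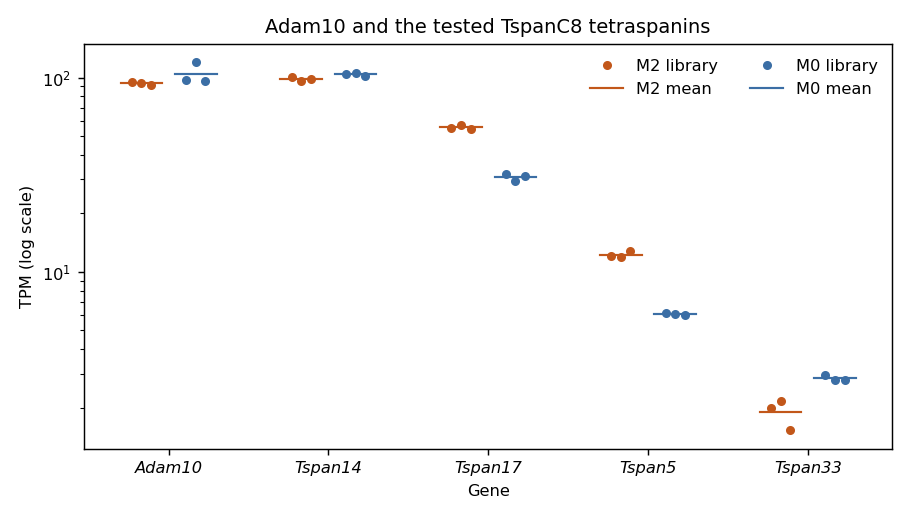
TPM of Adam10 and the 4 tested TspanC8 genes in each library (points) with the group mean (line), M2 left of M0, on a log axis. Tspan17 and Tspan5 lie higher in M2 than in M0, at 55.6 TPM in M2 against 30.7 TPM in M0 and at 12.3 TPM in M2 against 6.09 TPM in M0 on average, while all points of Tspan14 and Adam10 lie between 91.6 and 119.6 TPM.

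Over the whole TspanC8 and ADAM10 system, 13 of 15 genes were tested. Of these 5 rose, 6 fell and 2 missed the threshold, or 5, 4 and 4 after median scaling. The shares of all tested genes that rose and fell were 17.7% and 45.3%, or 28.8% and 28.2% after median scaling. The calls of Tspan5, Tspan17 and Tspan33 repeat those counted in the rest of the family, and Tspan14 is a member. The median log2 fold change of the system was -0.15, as for all tested genes. Cxcl16, a membrane-bound chemokine that ADAM10 sheds, fell to 84.0 ± 0.262 TPM in M2, against 134 ± 4.56 TPM in M0, a log2 fold change of -0.66 (limma-trend adjusted p = 3.5e-07). Il6ra, the interleukin-6 receptor gene, rose to 36.97 ± 1.16 TPM in M2, against 25.6 ± 1.97 TPM in M0 (SD, n = 3 each), a log2 fold change of 0.51 (limma-trend adjusted p = 4.6e-05).

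Known surface partners of tetraspanins were measured alongside. Of 26 partner genes, 20 were tested, and of these 4 rose, 11 fell and 5 missed the threshold, or 5, 8 and 7 after median scaling. The shares of all tested genes that rose and fell were 17.7% and 45.3%, or 28.8% and 28.2% after median scaling. The partners had a median log2 fold change of -0.21, against -0.15 for all tested genes. Without M0 replicate 2, 5 rose and 11 fell. Clec7a, which encodes dectin-1, the partner of CD37 and CD82, rose to 510 ± 22.8 TPM in M2, against 65.4 ± 7.26 TPM in M0, a log2 fold change of 2.95 (limma-trend adjusted p = 4.9e-10). Itga6, the laminin receptor chain that pairs with CD151, fell to 9.11 ± 0.646 TPM in M2, against 48.1 ± 5.08 TPM in M0, a log2 fold change of -2.28 (limma-trend adjusted p = 4.6e-09). Clec7a and Itga6 thus changed more than any of the 10 tetraspanins. Hbegf, a growth factor gene whose membrane form binds CD9, rose to 7.12 ± 0.538 TPM in M2, against 1.17 ± 0.151 TPM in M0, and Ifitm3, an interferon-induced antiviral gene, fell to 226 ± 9.56 TPM in M2, against 525 ± 24.5 TPM in M0 (SD, n = 3 each). Their log2 fold changes were 1.90 and -1.21.

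CD9, CD63 and CD81 are standard markers of extracellular vesicles, and genes for the release of such vesicles were measured too. Of 19 such genes, 18 were tested, and of these 1 rose, 13 fell and 4 missed the threshold, beside 17.7% and 45.3% of all tested genes that rose and fell. Their median log2 fold change was -0.23, against -0.15 for all tested genes. After median scaling 3 rose, 5 fell and 10 missed the threshold, with a median of -0.06, beside 28.8% and 28.2% of all tested genes. Smpd2, a neutral sphingomyelinase gene, was the 1 that rose, to 20.8 ± 0.104 TPM in M2, against 10.9 ± 0.832 TPM in M0 (log2 fold change 0.88, limma-trend adjusted p = 1.2e-06). Its relative Smpd3 had 0.419 ± 0.0763 TPM in M2 and 1.197 ± 0.147 TPM in M0. It is 1 of the 13 counted as fallen, but it entered the test through its M0 values alone and so had to differ. Rab27a, which docks vesicle-holding endosomes, fell to 1.06 ± 0.236 TPM in M2, against 2.02 ± 0.133 TPM in M0. Tsg101, a sorting protein of the endosome, fell to 28.1 ± 0.3803 TPM in M2, against 37.7 ± 2.44 TPM in M0 (SD, n = 3 each; log2 fold change -0.41).

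Of 22 palmitoyltransferase genes, the enzyme family that attaches palmitate to tetraspanins among many proteins, 18 were tested. By limma-trend 0 rose, 10 fell and 8 missed the threshold, beside 17.7% and 45.3% of all tested genes that rose and fell. The median log2 fold change was -0.27, against -0.15 for all tested genes. Of those counted as fallen, Zdhhc2 entered the test through its M0 values alone. At an unadjusted p under 0.05, 1 was higher in M2, and limma-voom on recovered reads called 1 rise. After median scaling 4 rose, 8 fell and 6 missed the threshold, with a median of -0.11. Zdhhc13, Zdhhc5, Zdhhc18 and Zdhhc14 had the largest falls, with log2 fold changes of -0.65, -0.62, -0.58 and -0.51 on deposited TPM and -0.49, -0.45, -0.41 and -0.34 after median scaling. Each gene outside the 10 members that is named here as having risen or fallen, from Tspan5 to Zdhhc14 and leaving the neighbours of Cd151 and the macrophage markers aside, also passed in that direction after median scaling.

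Tetraspanins are shared by many cell types, so markers of other cells were read beside them. The summed TPM of 5 platelet and megakaryocyte markers, cells rich in CD9, was 1.46 to 2.10 in M2 and 2.29 to 3.92 in M0. That of 5 endothelial markers, cells rich in CD151, was 0.343 to 0.526 in M2 and 3.32 to 3.95 in M0, with Tek at 0 in every library and Kdr the highest. That of 5 fibroblast markers was 6.95 to 7.42 in M2 and 9.37 to 9.83 in M0. B cell markers summed to 1.10 to 1.58 TPM in M2 and 1.85 to 1.98 TPM in M0, T and NK cell markers to at most 0.239 TPM with Cd8a at 0, and mast cell and basophil markers to at most 0.13 TPM with Mcpt8 at 0. Neutrophil markers summed to 3.44 to 5.11 TPM in M2 and 4.22 to 4.93 TPM in M0, and dendritic cell markers to 1.22 to 1.47 TPM in M2 and 0.363 to 0.595 TPM in M0. The dendritic sum turned on Zbtb46 alone, at 1.06 ± 0.0641 TPM in M2 and 0.0770 ± 0.0484 TPM in M0 (SD, n = 3 each), without which the list summed to 0.223 to 0.392 TPM in M2 and 0.328 to 0.472 TPM in M0. Without their highest markers, Ppbp and Cd79b, the platelet and B cell sums of the groups overlapped. The endothelial sum without Kdr stayed apart, at 0.125 to 0.271 TPM in M2 and 0.759 to 0.955 TPM in M0. So did the fibroblast sum without Col1a2, at 2.97 to 3.49 TPM in M2 and 4.42 to 4.80 TPM in M0. The part of such other cells in the changes of the members was not tested. The 7 macrophage markers were all tested and summed to 15120 to 15500 TPM in M2 and 16240 to 17390 TPM in M0. Most of that was Lyz2 (lysozyme), and the other 6 summed to 3236 to 3251 TPM in M2 and 2887 to 3074 TPM in M0. By limma-trend 3 of the 7 rose (Csf1r, Cd68 and Mertk), 3 fell (Itgam, Lyz2 and Fcgr1) and Adgre1 did not pass, and after median scaling 4 rose and 1 fell, with Adgre1 among the risen and Fcgr1 the fallen.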

How the data were processed

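RNA sequencing libraries of 3 M2 and 3 M0 BMDM samples were analysed, with groups and replicate numbers taken from the sample titles. The submitters' processing notes name mm10 as the build and list STAR, DESeq2, bcl2fastq and HOMER 4.11.1 without their order. Per the file headers, reads in exons of RefSeq genes were counted with 1 transcript kept per gene, and the authors deposited TPM per library. The authors' deposited comparison table holds per-library log2 values, whose transformation the header does not name, and for each gene the p-value, its adjusted form and the log2 fold change. In the TPM table, 3 entries shifted by commas were realigned. TPM multiplied by length gave whole reads (tolerance 0.1 read), which cover counting error only.

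Groups were compared by limma-trend (R 4.3.3, limma 3.58.1; two-sided, robust, group as the only term) after adding a pseudocount of 1 to TPM and taking log2, which understates the change of low genes. Since TPM is not a count, the planned edgeR test was not run, and limma-voom on recovered reads, added after seeing the data, took its place. The test was tried on simulated data. Those had few changed genes and an equal spread in every library, unlike the real data, so the trial does not vouch for the calls. Figures used Python 3.11.15 and matplotlib 3.10.9.

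The members and the 16 gene lists (159 genes, 158 found) were chosen with earlier results of these data known. The rule for named genes gave all members, up to 4 genes per list with the largest passing change and 4 checks of the labels. It also gave the 3 genes nearest to the member with the largest rise and with the largest fall. Tspan13, Tspan31, Tspan33, Rom1, Adam10, Zdhhc2, the neighbours of Cd151 and single cell type markers were among the genes named outside this rule. Same-numbered M2 and M0 libraries did not deviate together, which does not settle whether they were paired.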

Additional observations from a re-analysis of the deposited data

How the results depend on the processing

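In all 13 alternatives tried, 5 members rose (Cd151, Cd9, Cd81, Cd63 and Cd53) and Cd82 fell, with adjusted p at most 0.0415 for Cd53 and at most 0.000248 for the others. Median scaling gave 3234 genes that rose and 3163 that fell, against 1983 and 5088 on deposited TPM, and the authors' log2-scale values gave 3318 and 3323. Members that fell numbered 1 under median scaling, the authors' log2-scale values and limma-voom, and 1 to 3 with a library left out: 1 without M2 replicate 1 or without M2 replicate 2, where Tspan3 missed the threshold, and 3 without M0 replicate 2, where Cd37 passed. Genes of the other lists numbered 21 that rose and 26 that fell under median scaling and 22 that rose on the authors' log2-scale values, against 13 and 41. The log2 fold change of Cd37, Tspan3, Tspan4, Tspan14 and Adgre1 turned to 0.040, 0.031, 0.148, 0.089 and 0.171 under median scaling and to 0.036, 0.028, 0.139, 0.082 and 0.16 on the authors' log2-scale values, while limma-voom gave 0.029 for Tspan4 and 0.048 for Adgre1. With a library left out, Tspan4 ranged from -0.073 to 0.024 and Adgre1 from -0.043 to 0.064. Median scaling divides a library by 1 number, so it shifts all its genes together. With replicate number as a block, 6916 genes passed, against 7071 without it, and no member changed its call. Deviations of same-numbered libraries correlated at 0.005, -0.005 and -0.043, and 0 of 3 M2 libraries correlated best with its own number. Within M2 the chi-square per degree of freedom was only 1.54 to 1.73, so deviations there are mostly counting error. The correlations therefore cannot tell whether the numbers pair the libraries. Depth did not limit the members, whereas genes near 1 TPM rest on few reads.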
